A study of Mus musculus with 16 samples.

Results

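H3K4me3, the trimethyl mark on lysine 4 of histone H3, was compared between Bap1 cKO and WT endosteal mesenchymal stromal cells (MSCs), the stromal cells of the inner bone surface next to the marrow. The comparison used 4 of the 16 ChIP-seq libraries of the series, those whose titles name H3K4me3, with 2 libraries per genotype. All mice were C57BL/6J, and both genotypes carry the floxed allele: WT is Bap1fl/fl without Cre, and cKO is Prx1-cre;Bap1fl/fl, in which a Cre active in limb mesenchyme deletes Bap1. The labels say nothing of age, sex or how many animals went into a library. The p-values therefore cover only differences among libraries, whose source may be technical. The members are all 3789 autosomal genes among the 3925 genes of the deposited bin counts, each with a 10 kb window around its start, and the promoter value of a gene is the sum over the central 4 kb. The authors chose these genes, marking 1849 of the autosomal ones UP and 1940 DOWN, and their rule for doing so is not stated. Counts of changed promoters therefore describe this chosen set, not the genome.

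H3K4me3 is laid down at gene starts by COMPASS-type methyltransferases of the SET1 and MLL (KMT2) families. It is usually found at CpG-rich promoters, with the highest level on the nucleosomes just downstream of the start, and broad domains of the mark tend to cover genes that define a cell's identity. BAP1 is a deubiquitinase that takes off the ubiquitin on histone H2A that Polycomb repressive complex 1 puts there. Developmental genes that Polycomb holds silent often carry H3K27me3 together with a little H3K4me3.

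Summed bin counts were 6133611 and 7680117 for the WT libraries titled H3K4me3 and 6719130 and 10101047 for the cKO ones, with each read counted in about 3 neighbouring bins of 50 bp. The median promoter count was 1060 to 1912 per library, and log levels correlated across promoters at Pearson r 0.984 between the WT libraries and 0.988 between the cKO libraries. The antibody field of the libraries titled H3K4me3 names anti-acetyl-H3K27, while that of the libraries titled H3K27ac names anti-trimethyl-H3K4. All are called here by their titles. Counts of promoters and of gene lists with the libraries whose field names anti-trimethyl-H3K4, called the antibody-field libraries below, are given beside them, and covered widths were measured only in the libraries titled H3K4me3. Levels are given as CPM, counts relative to a library's autosomal total scaled with a TMM factor, and since all promoters are 4 kb long their levels can be compared. Of 13 blood cell markers only Lyz2 was among the genes measured, at 10.1 and 12.6 CPM in WT and 12.8 and 7.40 CPM in cKO. None of 11 endothelial markers was measured, and Ctsk, the osteoclast collagenase gene, was the only one of 8 osteoclast markers. In bulk cells, fewer cells of a type and less of the mark per cell cannot be told apart. The Bap1 window was not analysed here, so the genotypes have no check of their own.

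In cKO cells H3K4me3 rose at 1551 promoters and fell at 1188 of the 3773 tested, which is 41.1% and 31.5% (edgeR quasi-likelihood test, Benjamini-Hochberg-adjusted p at or under 0.05, as for every call below). Most changes were small: the median log2 change of cKO over WT was 0.05, and the middle 50% of promoters lay between -0.45 and 0.71. Large changes were called at fewer genes, with a log2 change of 2 or more at 195 and of -2 or less at 103, and of 3 or more at 56 and -3 or less at 30. The cKO libraries both lay above both WT libraries at 1718 promoters (45.5%) and below both at 1508 (40.0%). Of promoters that the authors marked UP, 1374 of 1840 rose, and of those marked DOWN, 1123 of 1933 fell. The balance between gains and losses depended on the scaling. Scaled on the outer 1 kb flanks of the windows, 1728 rose and 878 fell, and the median moved from 0.05 to 0.21. Taken relative to the outer flanks of the 20 nearest genes, 2409 rose and 397 fell, with a median of 0.48. With that offset centred on its median over all genes, called the centred flank offset below, 1201 rose and 1026 fell, with a median of -0.0024. The centred version was chosen after seeing the data. With the antibody-field libraries, 1189 rose and 1079 fell.

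The largest gains were at promoters that had almost no H3K4me3 in WT, and developmental transcription factor genes stood among them. At Irx1, an Iroquois homeobox gene of limb and heart patterning (ENSMUSG00000060969, chromosome 13, 71961724 to 71965723), the level was 18.9 and 21.4 CPM in WT, and the cKO libraries had 560.3 and 518 CPM. Its log2 change was 4.74 ± 0.12 (SE, adjusted p = 3.0e-309). At Gsc, the homeobox gene goosecoid (ENSMUSG00000021095, chromosome 12, 104471331 to 104475330), it was 38.5 and 44.5 CPM in WT and 718 and 682 CPM in cKO. Pax8, a thyroid and kidney regulator, had 25.4 and 19.1 CPM in WT and 528 and 512 CPM in cKO, and Sox11, a neural and mesenchymal regulator, 62.5 and 60.8 CPM against 590.2 and 533 CPM. In none of these 4 did the genotypes overlap, which was a condition for naming the strongest gains and losses. The WT libraries were lower by more than 8-fold at each of the 4. Dio3, which codes for the enzyme that inactivates thyroid hormone, showed the largest log2 change of the rise, 5.46 ± 0.15, from 9.34 and 8.02 CPM to 368 and 392 CPM, although its window overlaps that of another gene. Ror2, a receptor of non-canonical Wnt signalling, rose from 24.0 and 31.1 CPM to 511 and 476 CPM. Fbn2, the gene of fibrillin-2 in elastic microfibrils, rose from 12.1 and 19.6 CPM to 364 and 350.0 CPM. Hdgfl3 (22.6 and 26.5 CPM in WT, 434 and 411 CPM in cKO), Vldlr, a lipoprotein and reelin receptor (27.6 and 29.8 against 456 and 468 CPM), and Kctd15 (59.1 and 48.2 against 517 and 546 CPM) were the other gains of lowest p among genes with a name. Grik5, a glutamate receptor subunit gene, and Adamtsl3 had log2 changes of 4.33 ± 0.17 and 4.25 ± 0.17.

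Many of the losses named here emptied promoters that were strongly marked in WT, and genes of bone, fat and matrix were among them. This did not hold for the large losses as a class. At the 103 promoters called with -2 or less the median level over all 4 libraries was 99.4 CPM, against 189 CPM for all tested. Runx2, the master regulator of osteoblast formation (ENSMUSG00000039153, chromosome 17, 44812227 to 44816226), had 548 and 459 CPM in WT and 19.5 and 21.4 CPM in cKO. Its log2 change was -4.61 ± 0.12 (adjusted p = 5.8e-294). Runx2 has more than one promoter, and the window measured is the one around this start. At Col6a3, which codes for a collagen VI chain (ENSMUSG00000048126, chromosome 1, 90841972 to 90845971), the level was 428 and 389 CPM in WT and 18.5 and 21.6 CPM in cKO. Col1a2, a chain of type I collagen, had 443 and 381 CPM in WT and 40.7 and 32.3 CPM in cKO. Both cKO libraries lay far below both WT libraries at these 3 genes. Emilin1, an elastic fibre glycoprotein, fell from 286 and 321 CPM to 19.5 and 24.5 CPM, and Fabp4, the fatty acid binding protein of fat cells, from 217 and 174 CPM to 12.03 and 14.18 CPM. Hoxc13 fell from 624 and 613 CPM to 52.1 and 67.5 CPM, and St3gal6, a sialyltransferase gene, from 414 and 394 CPM to 49.5 and 52.0 CPM. Sema5a and Snhg18, which face each other across a shared window, fell by log2 changes of -2.48 ± 0.09 and -2.49 ± 0.09. Among the genes named here the lowest levels left were at Ift27, a subunit of the ciliary transport machinery (245 and 246 CPM in WT, 3.96 and 6.58 CPM in cKO, log2 -5.48 ± 0.18), and at Nphp4, a ciliary transition zone gene (111.5 and 118.6 against 1.74 and 4.32 CPM). At Nphp4 and at Cdyl2, a chromodomain gene (234 and 284 against 12.03 and 10.59 CPM), the other 3 marks were also lower, H3K27ac by log2 -3.04 and -2.77, H3K27me3 by -2.21 and -1.85 and H2AK119ub1 by -2.76 and -2.38.

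**Figure D1:**
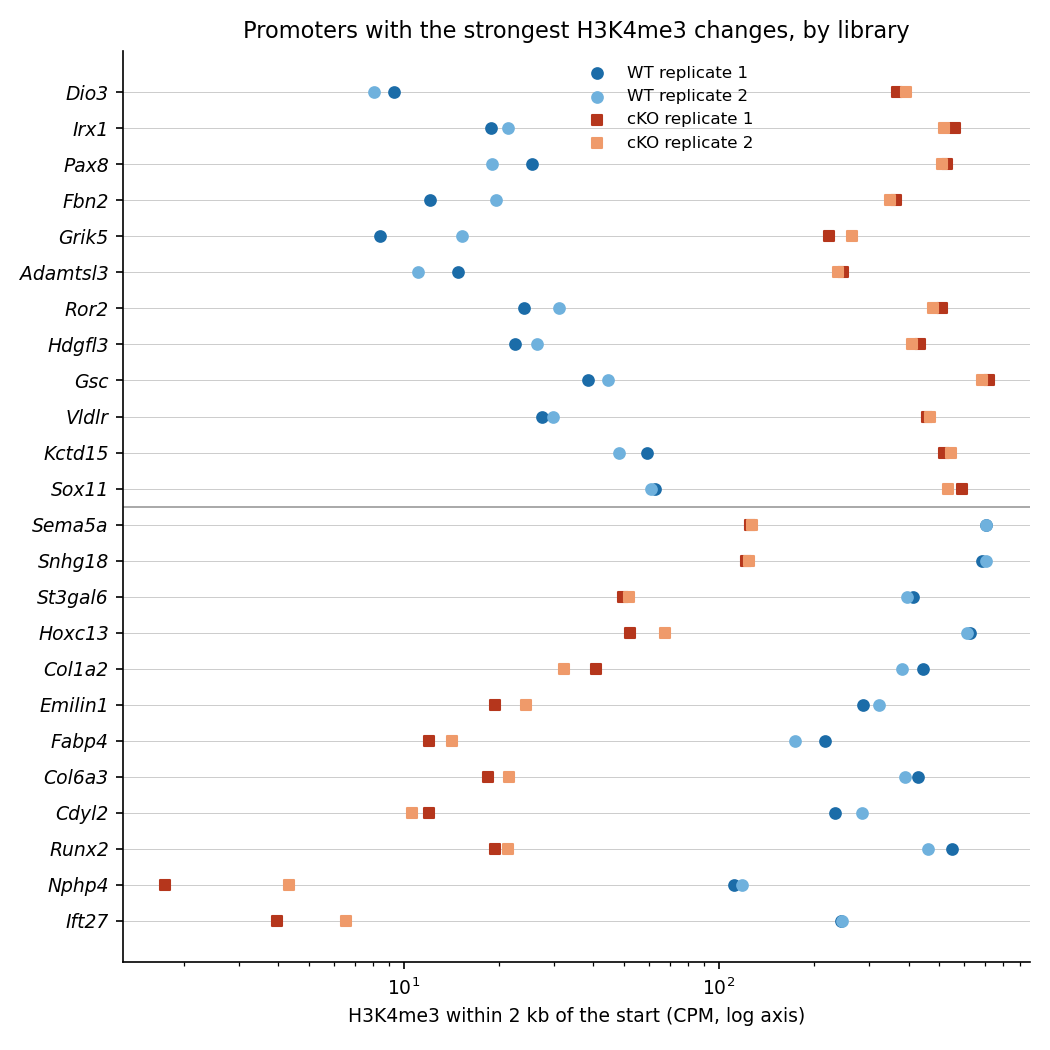
H3K4me3 within 2 kb of the start, in CPM on a log axis, for the 12 gains (above the grey line) and the 12 losses (below it) of lowest p or largest change; each point is 1 library, circles WT and squares cKO. Only genes whose WT and cKO points do not overlap could enter the figure. Replicate points lie close together except at the lowest levels, as at Nphp4 (1.74 and 4.32 CPM in cKO).

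The promoter sequences of strongly gaining and strongly losing genes differed in CpG content, with exceptions on both sides. The lines below give the 250 bases before the start of 6 genes, 5′ to 3′ on the gene's strand, from RefSeq (GRCm38.p6), with every CG dinucleotide and every TATAAA or its reverse complement TTTATA in capitals. Hdgfl3 and Adamtsl3 are CpG-rich examples among the gains, and Pax8 is a CpG-poor one. Col6a3 and Runx2 are CpG-poor examples among the losses, and Pparg, the master regulator of fat cells, is a CpG-rich one. The 6 stretches were picked after their values were seen. They lie at chr7:81934460-81934709 (minus strand), chr7:82335444-82335693 (plus), chr2:24475600-24475849 (minus), chr1:90843972-90844221 (minus), chr17:44814628-44814877 (minus) and chr6:115360894-115361143 (plus).
Hdgfl3: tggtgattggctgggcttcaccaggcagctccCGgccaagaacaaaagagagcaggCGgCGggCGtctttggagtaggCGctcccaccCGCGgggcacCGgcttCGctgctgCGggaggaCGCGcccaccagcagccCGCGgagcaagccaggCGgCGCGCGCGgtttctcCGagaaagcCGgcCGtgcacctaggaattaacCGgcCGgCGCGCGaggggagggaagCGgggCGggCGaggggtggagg
Adamtsl3: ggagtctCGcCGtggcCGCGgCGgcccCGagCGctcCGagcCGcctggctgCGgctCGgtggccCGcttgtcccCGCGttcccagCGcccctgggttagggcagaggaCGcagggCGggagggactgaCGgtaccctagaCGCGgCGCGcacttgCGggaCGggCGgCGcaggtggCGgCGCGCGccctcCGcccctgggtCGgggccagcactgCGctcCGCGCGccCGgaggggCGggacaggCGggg
Pax8: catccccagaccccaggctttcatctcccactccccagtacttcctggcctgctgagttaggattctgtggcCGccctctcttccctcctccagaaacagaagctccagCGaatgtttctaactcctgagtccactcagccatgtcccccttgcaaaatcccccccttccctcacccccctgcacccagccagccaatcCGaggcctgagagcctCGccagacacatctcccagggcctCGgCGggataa
Col6a3: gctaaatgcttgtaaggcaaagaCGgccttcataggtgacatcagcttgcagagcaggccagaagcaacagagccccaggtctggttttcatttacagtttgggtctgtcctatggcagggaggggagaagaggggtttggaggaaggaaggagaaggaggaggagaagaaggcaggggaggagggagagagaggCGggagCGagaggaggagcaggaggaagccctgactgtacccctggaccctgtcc
Runx2: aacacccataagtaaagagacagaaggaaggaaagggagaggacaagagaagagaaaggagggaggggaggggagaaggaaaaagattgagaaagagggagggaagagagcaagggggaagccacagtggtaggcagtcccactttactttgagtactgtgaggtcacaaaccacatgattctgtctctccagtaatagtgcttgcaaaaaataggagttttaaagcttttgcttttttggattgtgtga
Pparg: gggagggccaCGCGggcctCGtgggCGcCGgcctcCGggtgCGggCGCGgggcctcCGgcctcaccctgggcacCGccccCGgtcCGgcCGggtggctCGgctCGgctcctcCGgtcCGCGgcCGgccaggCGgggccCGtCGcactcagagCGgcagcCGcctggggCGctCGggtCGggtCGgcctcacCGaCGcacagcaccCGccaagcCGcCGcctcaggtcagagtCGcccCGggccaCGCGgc
The stretches hold 30, 39 and 6 CG for Hdgfl3, Adamtsl3 and Pax8 and 3, 0 and 38 CG for Col6a3, Runx2 and Pparg. The RefSeq start lies 401 bases from the window's centre at Runx2, 194 at Pparg and 0 to 37 at the other 4. Of the promoters tested 2465 had a RefSeq sequence, and their median CpG observed-to-expected ratio was 0.70 over these 250 bases. The ratio is the number of CG divided by that expected from the C and G content. It was 0.68 at the 115 promoters called with a log2 change of 2 or more and 0.42 at the 65 called with -2 or less. The strong gains thus lay near the value of all tested promoters, and only the strong losses lay well below it. Ratios under 0.4 were found at 20.9% of the former, 43.1% of the latter and 19.8% of all tested. TATAAA, on either strand, stood in 10.4% of the strong gains, 18.5% of the strong losses, 7.4% of the tested promoters and 12.3% of all 32536 RefSeq promoters of the table. These shares are descriptions, without a test.

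A larger share of the mark lay close to the gene start in cKO. Averaged over all autosomal windows, the level between 0 and 400 bp downstream of the start was 5.92 ± 0.23 CPM per bin (mean ± SD, n = 2) in WT libraries against 7.55 ± 0.06 (n = 2) in cKO libraries. Just upstream, from -400 to 0 bp, it was 3.31 ± 0.04 and 4.44 ± 0.06 CPM per bin. Further down the gene the order turned: from 1000 to 2000 bp downstream the level was 1.75 ± 0.08 in WT and 1.52 ± 0.05 in cKO, and from 2000 to 5000 bp it was 0.51 ± 0.01 and 0.42 ± 0.00. The highest bin lay 275 and 225 bp downstream of the start in the WT libraries and 225 bp downstream in both cKO libraries. The share of a library's counts within 400 bp of the starts was 28.4% and 29.6% in WT libraries against 34.9% and 35.2% in cKO libraries. The share within 1 kb was 58.4% and 59.3% against 66.2% and 66.0%, and the share in the outer 1 kb flanks 5.77% and 5.96% against 4.79% and 5.02%. Neither share overlapped between genotypes, and the exact two-sided permutation p of each was 0.333, the smallest that 2 libraries against 2 allow.

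**Figure D2:**
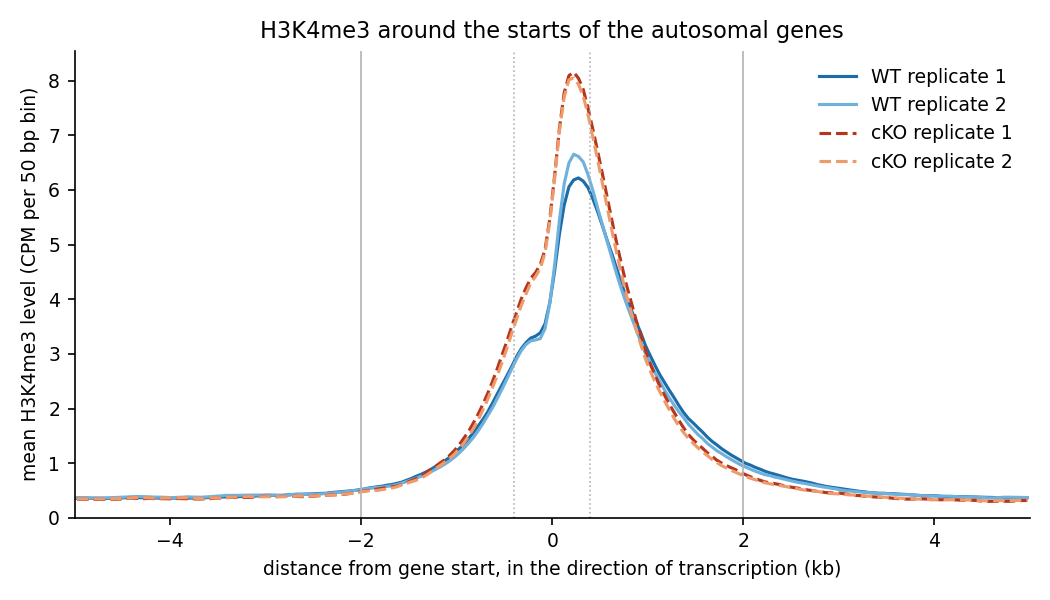
Mean H3K4me3 level in CPM per 50 bp bin against the distance from the gene start in kb, over the 3789 autosomal genes, with 1 line per library (solid WT, dashed cKO). Solid grey lines bound the central 4 kb and dotted lines the core of 400 bp to each side. The cKO lines peak near 8 CPM against 6.22 and 6.65 CPM in WT and cross below the WT lines beyond 1 kb downstream.

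Tested by segment, gains outnumbered losses in the core, and losses outnumbered gains in both flanks. The largest share of losses was in the downstream shoulder. In the core, 400 bp to each side of the start, 1622 genes rose (43.6%) and 528 fell (14.2%), with a median log2 change of 0.27. In the downstream shoulder, from 400 bp to 2 kb, 1174 rose (31.5%) and 1316 fell (35.3%), and in the upstream shoulder 668 (17.9%) and 600 (16.1%). In the flanks beyond 2 kb, 292 rose (7.83%) and 1008 fell (27%) downstream, and 168 (4.51%) and 515 (13.8%) upstream, with medians of -0.47 and -0.40. A test of core against shoulders within each gene, which does not depend on the library scaling, found 1320 of 3771 genes shifted towards the core (35%) and 168 away from it (4.46%), with a median shift of 0.38 on the log2 scale. With the mean level of the outer flanks taken off each library, 30.8% of the 3134 genes tested shifted towards the core and 9.16% away. Of the 1034 promoters with no call in total level, 270 shifted towards the core and 24 away. The shift towards the core stood at 621 of the 1188 promoters that fell and at 429 of the 1551 that rose. In the libraries titled H3K27ac, which are the antibody-field libraries, the same test called 292 (7.77%) and 49 (1.3%). If the antibody fields name the marks, these are the H3K4me3 counts, and the shift towards the core is called at fewer genes. The difference between the marks was not tested.

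Single genes showed the narrowing plainly. At Optn, the gene of the autophagy receptor optineurin, the core held 27.1% and 29.0% of the promoter's counts in WT and 68.6% and 72.4% in cKO (shift 2.63 ± 0.18, adjusted p = 2.7e-07). At St3gal6 it held 32.6% and 34.0% against 72.2% and 76.7%, and at Plxnd1, a semaphorin receptor gene, 18% and 19.65% against 57.2% and 51.9%. Tbc1d2 shifted in the same way (42.6% and 43.1% against 72.9% and 73.5%) with a small loss in total level (log2 -0.28 ± 0.09). Genes that gained broad domains shifted in either direction or in neither. Irx1 (2.53) and Dkk3 (1.68) had called shifts towards the core as they widened, and Pax8 (0.22) and Foxd1 (-0.12) were not called. The Irx1 promoter held only 18.9 and 21.4 CPM in WT, so its shift is a ratio against a nearly empty window. In cKO its highest 250 bp mean lay 575 and 525 bp downstream of the start, outside the core. The opposite shift, away from the core, was large at Gsc, where the core held 65.3% and 63.7% of the counts in WT, where only a small peak stood at the start, and 21.5% and 22.0% in cKO. At Mn1, a transcriptional co-regulator gene, it held 58.7% and 51.2% against 34.2% and 30.0%, while the level rose from 170.3 and 154 CPM to 771 and 733 CPM. Jph4, a junctophilin gene, had 9.29% and 11.2% against 1.39% and 1.34%, so its added signal lay outside the core.

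The balance between the sides of the start also changed. In WT 67.6% and 68.2% of the counts within 2 kb lay downstream of the start, and in cKO 66.0% and 66.1%. Gene by gene, 444 of 3771 moved downstream (11.8%) and 700 upstream (18.6%). Counting only 1 kb to each side gave 292 and 466, and taking off the outer flank level left 3.40% and 7.98% of 3056 genes tested. Without cKO replicate 1 or 2, 280 and 274 moved downstream. In the libraries titled H3K27ac, the antibody-field libraries, 256 moved downstream (6.81%) and 207 upstream (5.51%). The balance of moves thus turned between the 2 sets of libraries, and which set holds H3K4me3 rests on the titles. The downstream moves went mainly with gains, since 350 of the 444 rose in level (78.8%, against 41.1% of all promoters tested). The upstream moves went with losses, since 453 of the 700 fell (64.7%, against 31.5%). Scx, the tendon transcription factor scleraxis, moved downstream, from 59.1% and 59.1% of its counts to 87.4% and 85.6% (shift 2.15 ± 0.21, adjusted p = 1.0e-13). Hr, a corepressor gene, moved from 63.7% and 74.0% to 94.6% and 94.9%, and Trim46, an axonal microtubule gene, from 14.7% and 16.8% to 42.0% and 43.9%. Nrn1, the neuritin gene, moved upstream, from 85.1% and 84.9% to 61.9% and 60.5%, with a gain in level (log2 0.60 ± 0.07).

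Plcd3, a phospholipase C gene (ENSMUSG00000020937, chromosome 11, 103099659 to 103103658), lost its own peak while a neighbouring one grew. In WT its highest 250 bp mean stood at 75 and 225 bp downstream of the start, with 12.5 and 13.2 CPM per bin, and in cKO at -1525 bp in both libraries, with 15.2 and 13.5 CPM per bin. The downstream share of its counts went from 40.9% and 44.2% to 8.35% and 8.47%, while the total fell only from 396 and 350 CPM to 233 and 199 CPM. The sum over the central 4 kb thus held 2 peaks that moved in opposite directions. Csgalnact1, a chondroitin sulfate synthesis gene, and Maf, a basic leucine zipper transcription factor gene, also moved upstream as they fell (shifts -2.06 and -1.92, log2 changes in level -1.70 ± 0.09 and -1.07 ± 0.08).

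**Figure D3:**
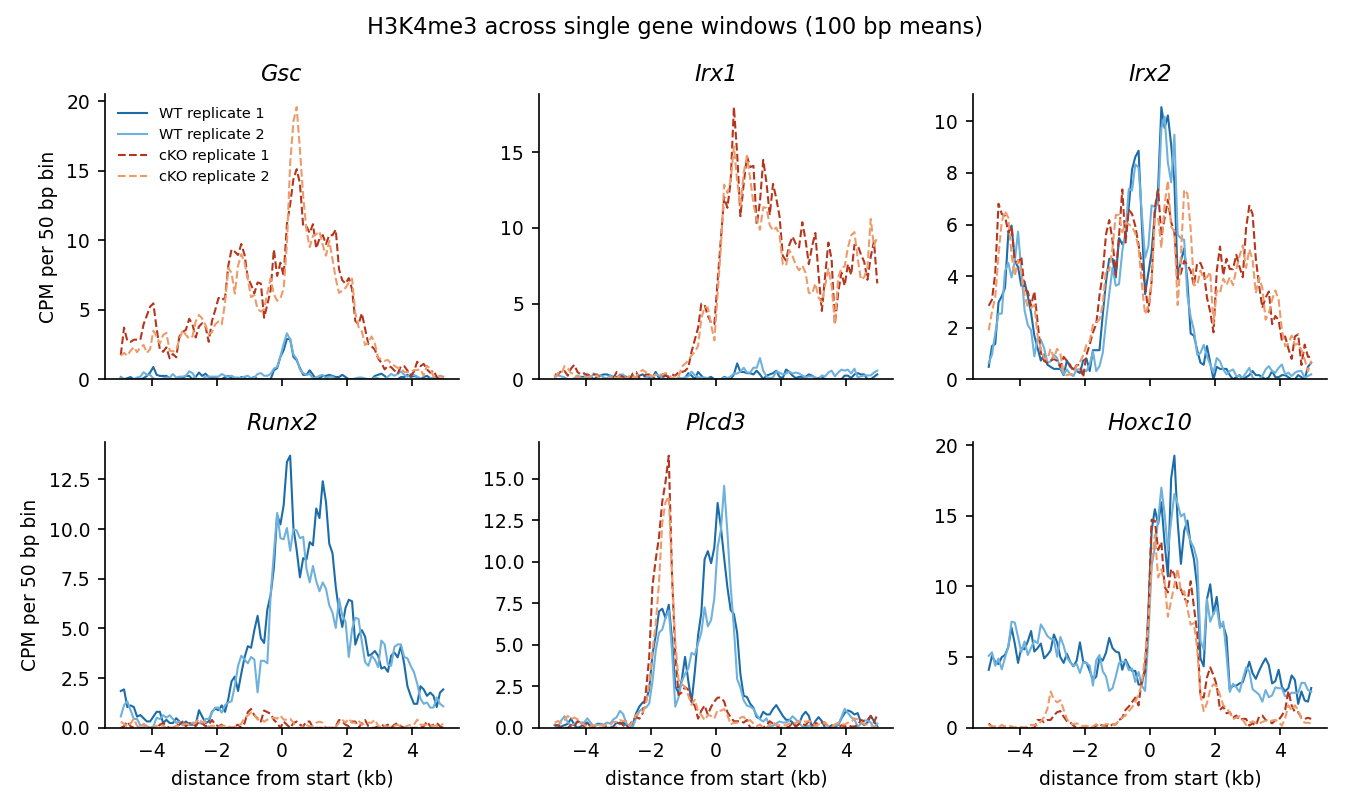
H3K4me3 level in CPM per 50 bp bin, as 100 bp means, against the distance from the start in kb at 6 genes, with 1 line per library (solid WT, dashed cKO). Gsc and Irx1 gain broad domains, Runx2 loses one, Irx2 spreads downstream at a lower peak (10.1 and 9.85 against 6.93 and 7.13 CPM), Plcd3 swaps its peak at the start for one near -1525 bp, and Hoxc10 keeps a peak at the start while the level around it falls.

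Widths changed in both directions, and in most cases together with height. The covered width is the length of the 10 kb window at or above 2.5 CPM per bin. Among 3111 genes with a mean width of at least 200 bp it was wider in cKO at 880 (28.3%) and narrower at 962 (30.9%; limma, Benjamini-Hochberg-adjusted p). Of the wider ones 843 had risen in level and 0 had fallen, and of the narrower ones 806 had fallen and 20 had risen. Sox11 went from 50 and 100 bp to 5350 and 5450 bp, Pax8 from 0 and 0 to 5100 and 5100 bp, and Foxd1, a forkhead gene of kidney stroma, by a mean of 4925 bp. Irx1 went from 0 and 0 to 5700 and 5500 bp, Pgr, the progesterone receptor gene, from 0 and 0 to 4200 and 4100 bp, and Sema3f, a secreted guidance molecule, from 0 and 0 to 3750 and 3850 bp. The broad domains that were lost included those of Runx2 (5100 and 5450 bp against 0 and 0), Col1a2 (0 and 0 in cKO), Pparg (4800 and 4750 against 200 and 400), Hoxc13 (5050 and 4900 against 50 and 150), Col6a3 (4400 and 4250 against 0 and 0) and Thbd, the thrombomodulin gene (4100 and 4200 against 0 and 0). The median width over all genes was 1300 and 1200 bp in WT and 1300 and 1250 bp in cKO. Without one or the other library the test called 250 to 323 wider and 154 to 366 narrower genes.

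Irx2 changed width without a call in the level of its central 4 kb, while the width was taken over 10 kb. Part of the added width lay beyond the 4 kb. At 2450 bp downstream the level was 0.161 and 0.318 CPM per bin in WT and 4.27 and 3.96 in cKO. At Irx2, the neighbour of Irx1 on chromosome 13, the level was 354 and 348 CPM in WT and 364 and 366 CPM in cKO (log2 0.06 ± 0.09, adjusted p above the threshold), while the covered width went from 3750 and 3350 bp to 6700 and 6400 bp (difference 3000 ± 241 bp, adjusted p = 0.000108). Its 4 kb overlaps that of another gene. At Hoxc10 the level fell as well, by 0.81 on the log2 scale, and the width fell from 9650 and 9000 bp to 2400 and 2300 bp. The width at 50% of a peak's own height is measured relative to that height. It was wider at 22 of 2207 genes (0.997%) and narrower at 42 (1.9%). How it varied with the change in height was not tested. At 25% of the height 75 were wider and 404 narrower, without WT replicate 2 147 were narrower, and with the replicate number as a block none was called in either direction. The wider ones of lowest p, besides Irx2, were Arhgef25 (650 and 700 bp against 2050 and 2000 bp), Bcr (750 and 750 against 1800 and 1750 bp), a GTPase regulator gene, and Tmem266 (1150 and 1100 against 2450 and 2300 bp). The narrower ones were Snai1, an inducer of mesenchymal fate (3100 and 2550 against 500 and 550 bp), Srgap3 (2050 and 2050 against 500 and 600 bp), Eya4 (2250 and 2200 against 850 and 750 bp) and Zc2hc1a (2900 and 2450 against 600 and 650 bp). No gene was called without cKO replicate 1 or without cKO replicate 2, so this result rests on both.

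How the change in level varied with peak width depended on the libraries that gave the width. Taking the width from the mean of the 4 libraries and dividing the genes into 4 classes of about equal size, the median log2 change was 0.24 in the narrowest class (50 to 1050 bp, 832 genes) and 0.13 in each of the 3 wider classes. Genes with no bin above the level, 682 of them, had a median of -0.36, with 83 rising and 183 falling. The shift towards the core was present in each class, with medians of 0.52, 0.42, 0.38 and 0.27 from the narrowest to the broadest. With widths from WT replicate 1 alone and changes from the other 3 libraries, the class medians fell from 0.42 in the narrowest class through 0.10 and -0.016 to -0.12 in the broadest, and with 5 CPM as the level the widest class had 0.21.

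Genes of bone and fat formation mostly lost the mark. Of 9 endosteal MSC markers measured, 7 fell, 1 rose and 1 was not called, against 31.5% falling among all promoters tested. The authors marked all 9 DOWN, and as for every list here their choice of genes bears on the direction. Eng, the endoglin gene, fell from 179 and 169 CPM to 15.7 and 9.46 CPM, Pdgfrb, a receptor of pericytes and stroma, from 569 and 516 CPM to 105 and 123 CPM, and Cxcl12, the chemokine that retains blood stem cells, from 612 and 570.0 CPM to 348 and 355 CPM. Mcam was the 1 that rose (log2 change 0.98). Relative to the outer flanks of neighbouring genes the counts on this list were 4 higher and 2 lower, and with the antibody-field libraries 0 and 6. With the centred flank offset they were 1 higher and 7 lower. Of 9 osteoblast genes 8 fell (6 with the antibody-field libraries), with Col1a2, Wnt10b, a bone-promoting Wnt ligand (325 and 357 against 40.2 and 40.6 CPM), and Spp1, the osteopontin gene (144 and 137 against 16.8 and 21.0 CPM), falling most. Cadm1 rose from 21.9 and 21.8 CPM to 135 and 144 CPM. Of 8 adipocyte genes 5 fell and 2 rose, also with the antibody-field libraries. Relative to the flanks of neighbouring genes 4 adipocyte genes fell and 2 rose, and 6 osteoblast genes fell and 1 rose. The medians were then -0.25 and -0.61, against -0.95 and -1.07. With the centred flank offset 6 adipocyte genes fell and 1 rose, and 7 osteoblast genes fell and 1 rose (medians -0.73 and -1.09). Pparg fell from 402 and 425 CPM to 55.9 and 59.2 CPM, and Plin4, a lipid droplet coat gene, from 228 and 276 CPM to 21.0 and 29.9 CPM, while Klf15 rose from 39.2 and 30.0 CPM to 148 and 164 CPM. Ctsk, the osteoclast marker, fell from 128 and 110 CPM to 12.2 and 14.6 CPM.

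Of 6 cartilage and tendon genes measured, 3 rose and 1 fell, against 41.1% and 31.5% of all promoters tested, and 3 and 0 with the antibody-field libraries. The 1 that fell was Col10a1, a collagen of hypertrophic cartilage (log2 -0.54). Scx rose from 89.9 and 91.2 CPM to 395 and 371 CPM, Fgfr3, a receptor of growth plate cartilage, from 106 and 121 CPM to 340 and 345 CPM, and Sox9, the regulator of cartilage formation, from 426 and 416 CPM to 774 and 772 CPM. Matrix genes split. Of 24 measured, 14 fell and 9 rose, as with the centred flank offset. Relative to the flanks of neighbouring genes 10 fell and 11 rose, and with the antibody-field libraries 15 and 7. The losses held the fibril collagen gene Col3a1 (283 and 234 against 20.4 and 15.9 CPM), Col6a3, Emilin1 and Loxl1, a crosslinking enzyme of elastin (281 and 279 against 37.8 and 31.0 CPM). The gains held Fbn2, Vit, the vitrin gene (22.6 and 32.6 against 329 and 289 CPM), Fbln5, an elastic fibre assembly gene (62.0 and 64.1 against 220 and 229 CPM), and Ltbp2 (136.4 and 130.7 against 413 and 405 CPM). Genes of the blood stem cell niche fell at 7 and rose at 3 of 15, against 31.5% and 41.1% of all promoters tested. With the antibody-field libraries 9 fell and 2 rose, and relative to the flanks of neighbouring genes 4 fell and 9 rose. With the centred flank offset 6 fell and 3 rose. Vcam1, an adhesion molecule for blood progenitors, fell from 144 and 149 CPM to 35.8 and 32.3 CPM and Angpt1, a Tie2 ligand, from 462 and 451 CPM to 189 and 169 CPM. Jag1, a Notch ligand, rose from 229 and 243 CPM to 583 and 520.4 CPM. The median of the niche list was -0.15, but 0.00 with the outer flanks as library sizes and 0.36 relative to the flanks of neighbouring genes. It was -0.12 with the centred flank offset.

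Developmental transcription factors rose at 11 and fell at 5 of 22, against 41.1% and 31.5% of all promoters tested. With the antibody-field libraries 9 rose and 8 fell, and relative to the flanks of neighbouring genes 17 and 2. With the centred flank offset 11 rose and 5 fell. Beside Irx1, Gsc, Pax8, Sox11 and Foxd1, the gains included Eya2 (65.4 and 81.3 against 421 and 397 CPM), Foxf1 (105 and 125 against 408 and 444 CPM), Gata2 (41.7 and 43.4 against 165 and 154 CPM) and Otx1 (166 and 174 against 492 and 491 CPM). Of the 22, 13 were wider and 6 narrower, against 28.3% and 30.9% of all genes tested for width. The wider ones included genes with no call in the level of the central 4 kb, such as Irx2. The losses included Eya4 (582 and 597 against 201 and 216 CPM) and the limb gene Shox2 (656 and 642 against 368 and 350 CPM). Of 5 Hox genes 3 fell and 1 rose (2 and 2 relative to the flanks of neighbouring genes, 3 and 0 with the antibody-field libraries). With the centred flank offset 3 fell and 2 rose. Hoxc13 and Hoxc11 were emptied (Hoxc11 358 and 357 against 51.0 and 41.5 CPM), Hoxc10 fell from 680 and 657 CPM to 404 and 362 CPM, and Hoxa2 rose from 31.9 and 30.7 CPM to 52.1 and 54.3 CPM. Polycomb and BAP1 complex genes rose at 6 and fell at 0 of 8, led by Phf19, an accessory subunit gene of Polycomb repressive complex 2 (48.5 and 48.5 against 238 and 234 CPM), Epop (102 and 103 against 235 and 230.1 CPM), and Pcgf2, a subunit gene of complex 1 (493 and 542 against 1000 and 949 CPM). Without TMM factors 6 rose and 1 fell, and with the antibody-field libraries 5 and 1. Relative to the flanks of neighbouring genes 7 rose and 0 fell. With that flank offset centred on its median over all genes, 4 rose and 0 fell, and the list median was 0.16 against 0.77. Of the H3K4 methylation machinery 2 genes were measured, and Kmt2c, a methyltransferase gene, rose (411 and 441 against 678 and 612 CPM).

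Wnt pathway genes rose at 13 and fell at 8 of 23, against 41.1% and 31.5% of all promoters tested. The counts were 6 and 6 with the antibody-field libraries and 10 and 8 in DESeq2 and without TMM factors. Relative to the flanks of neighbouring genes they were 18 and 5, and 12 and 5 with the centred flank offset. Among ligands, Wnt10b fell and Wnt11 rose (81.8 and 71.6 against 127.6 and 104.5 CPM). Among receptors, Ror2 and Ror1 (37.0 and 34.4 against 182 and 196 CPM) and Fzd2 (343 and 338 against 811 and 728 CPM) rose, while Fzd7 fell (531 and 519 against 372 and 382 CPM), though relative to the flanks of neighbouring genes it was higher (0.47). Among secreted inhibitors, Sfrp1 fell (180.8 and 163.8 against 53.8 and 65.5 CPM) and Dkk3 (88.8 and 91.4 against 450 and 386 CPM) rose. Among feedback and nuclear members, Axin2, a target and inhibitor of canonical signalling, rose from 88.9 and 74.2 CPM to 378 and 421 CPM, and Tcf7 from 18.9 and 24.9 CPM to 118 and 106 CPM. BMP and TGF-beta pathway genes rose at 9 and fell at 3 of 15, against the same background shares. The counts were 7 and 4 with the antibody-field libraries and 12 and 1 relative to the flanks of neighbouring genes. With the centred flank offset 8 rose and 3 fell. The secreted BMP antagonists Nog (33.5 and 29.9 against 220 and 189 CPM), Grem1 (53.6 and 71.9 against 225 and 243 CPM) and Chrd (83.8 and 92.4 against 284 and 262 CPM) led the list, with the receptor gene Acvr2b (112.4 and 121.4 against 337 and 355 CPM). Fstl3 fell most (244 and 228 against 90.2 and 115 CPM). Of the other lists, cell cycle and p53 genes had 3 rising and 0 falling of 7 (1 and 1 without TMM factors or with the antibody-field libraries, 1 and 0 in DESeq2), respiratory chain genes 2 and 1 of 4, and ribosomal protein genes 1 and 1 of 2.

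**Figure D4:**
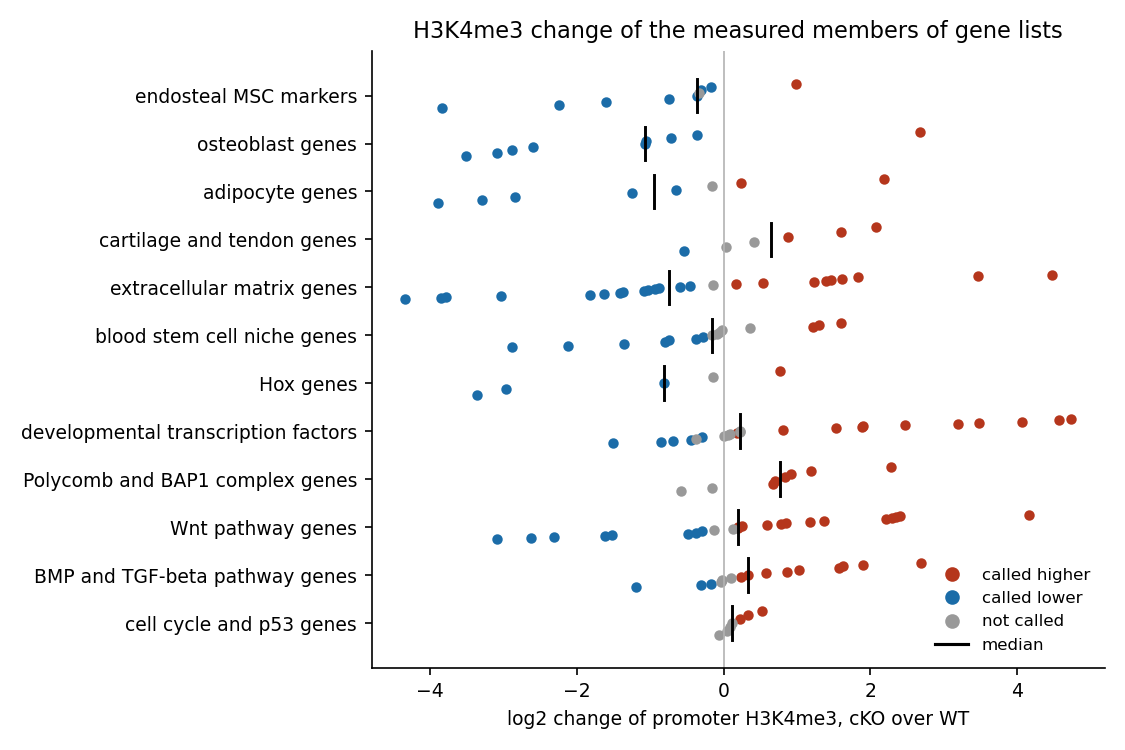
Log2 change of promoter H3K4me3, cKO over WT, for the tested members of the 12 gene lists with at least 5 of them; each point is 1 gene, coloured by its call, and black bars are list medians. Osteoblast genes (median -1.07) lie mostly to the left and Polycomb and BAP1 complex genes (0.77) mostly to the right, while matrix and Wnt genes spread over both sides.

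H3K27ac, the other active mark, mostly moved with H3K4me3. Of the 1189 promoters (31.6%) that rose in H3K27ac, 1080 rose in H3K4me3 and 2 fell, and of the 1079 (28.7%) that fell, 835 fell and 27 rose. A test of the difference between the log2 changes of the 2 marks called 502 of 3772 promoters with the H3K4me3 change higher (13.3%) and 209 with it lower (5.54%). Fewer were called without any one library titled H3K4me3, and no library titled H3K27ac was left out. If the antibody fields rather than the titles name the marks, these counts and the sign of each difference below are exchanged. At Scx, H3K27ac stayed near 388 and 363 CPM in WT and 393 and 358 CPM in cKO (log2 0.00, no call), while H3K4me3 rose (difference 2.08 ± 0.16, adjusted p = 8.1e-08). Igfbp6 also rose in H3K4me3 (67.5 and 56.1 against 385 and 331 CPM), with no call in H3K27ac (0.24). At Krt80, H3K4me3 rose (46.2 and 38.4 against 104.5 and 97.03 CPM) and H3K27ac fell (log2 -0.50). At Hhipl1, H3K4me3 was not called (176 and 177 against 154 and 144 CPM), whereas H3K27ac fell from 513 and 486 CPM to 111.7 and 119.9 CPM. Rbfa, a mitochondrial ribosome assembly gene, lost H3K4me3 (230 and 201 against 11.24 and 17.99 CPM) with H3K27ac at 139 and 154 CPM in WT and 136.4 and 151.3 CPM in cKO. At Runx2 and Ift27 both marks fell and H3K4me3 fell further (differences -2.19 ± 0.19 and -2.88 ± 0.35). Patz1, a zinc finger gene, rose more in H3K27ac (log2 1.53) than in H3K4me3 (0.37 ± 0.08).

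H3K27me3 and H3K4me3 often changed in opposite directions at the large gains. Of the 507 promoters (13.5%) where H3K27me3 fell, 352 rose in H3K4me3 (69.4%) and 59 fell (11.6%). Of the 475 (12.7%) where it rose, 179 rose in H3K4me3 (37.7%) and 195 fell (41.1%). Over all promoters tested 41.1% rose and 31.5% fell in H3K4me3. Among promoters in the top 10% by H3K27me3 level, 233 of 379 rose in H3K4me3 and 69 fell (median 0.81). Among the 195 promoters that gained H3K4me3 by a log2 change of 2 or more, 192 were tested for H3K27me3, which fell at 56.8% of them and rose at 2.60%. Among those that lost H3K4me3 by -2 or less, 102 were tested, and H3K27me3 rose at 25.5% and fell at 7.84%. At Pax8, H3K27me3 fell from 580.1 and 416 CPM to 112.3 and 85.42 CPM, and at Phf19 from 534 and 500 CPM to 67.4 and 59.0 CPM. At Hoxc13 the exchange ran the other way, with H3K27me3 at 77.6 and 118 CPM in WT and 637 and 568 CPM in cKO, and Pparg went from 76.7 and 76.2 CPM to 314 and 273 CPM. Losses without a call in H3K27me3 were seen at Runx2 (log2 0.19), Col6a3 (0.32) and Col1a2 (0.58). A test of the difference between the changes of the 2 marks called 781 of 3775 promoters with H3K4me3 higher (20.7%) and 704 with it lower (18.6%).

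The change of H3K4me3 differed between chromosomes. The median log2 change was 0.77 on chromosome 4, where 238 of 322 promoters rose, 0.68 on chromosome 7, 0.67 on chromosome 11 and 0.53 on chromosome 12. It was -0.54 on chromosome 16, -0.45 on chromosome 19, where 92 of 135 fell, -0.41 on chromosome 18 and -0.39 on chromosome 15. The outer 1 kb flanks, far from the promoter peaks, also differed, with medians of 0.20 and 0.22 on chromosomes 4 and 7 and -0.81 and -0.85 on chromosomes 16 and 19. The part of this regional level in a single promoter's change was not tested. The flanks of the 20 nearest genes changed by log2 -0.71 at Runx2, -0.88 at Col6a3, -0.25 at Irx1 and -0.12 at Gsc, which is smaller than the change at these promoters. The shift towards the core was positive in the median on each of the 19 autosomes, from 0.25 on chromosome 9 to 0.57 on chromosome 1.

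**Figure D5:**
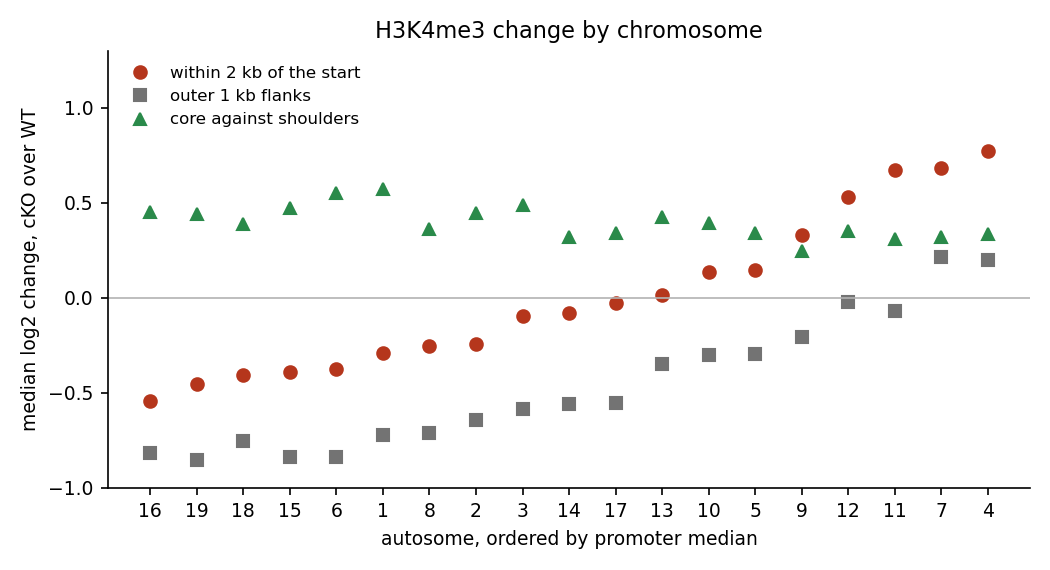
Median log2 change, cKO over WT, per autosome for promoters (circles), for the outer 1 kb flanks (squares) and for the core against the shoulders (triangles), with autosomes ordered by the promoter median. Promoter and flank medians rise together from chromosome 16 (-0.54 and -0.81) to chromosome 4 (0.77 and 0.20), while the core shift stays between 0.25 and 0.57.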

How the data were processed

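ChIP-seq reads of 4 marks were counted by the authors in 50 bp bins; the deposited values are whole-number counts per bin, not normalised, per the file headers. Tools named in the submitters' processing notes were Bowtie2 (2.4.5), cutadapt (1.18), SAMtools (1.9), Picard (2.25.5) and bedtools (2.30.0), with the build GRCm38. Runs of filled bins were 3 bins long in 98.8% of runs under 4 bins, so summed bins hold each read about 3 times. Groups came from the sample titles.

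Gene symbols were assigned by position from RefSeq (GRCm38.p6), taking genes whose start lies within 500 bp of the window's centre, which named 3273 autosomal genes (86.4%) (124 windows were named after a 20 kb shift). For 296 genes the central window overlaps a neighbour's. Library sizes were autosomal bin sums times TMM factors, and promoters passed filterByExpr with a minimum count of 10. Promoters, 5 segments, shifts within a gene and differences between marks were tested in R 4.3.3 with the quasi-likelihood F-test of edgeR 4.0.16, widths with limma 3.58.1, and library shares by exact permutation, all at 0.05. The scripts were tested on simulated counts. Depth is given with the libraries, and p-values adjust over all promoters tested.

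The members, gene lists and tests were chosen with earlier results of these data known. The named genes are those of lowest p or largest change in each test, for each list the members with the lowest p, with predicted and clone names passed over; other list members and the 6 genes of the printed sequences and of the single-gene profiles were picked after their values were seen. Genes of lowest p or largest change in level were taken only where both cKO libraries lay on one side of both WT ones. The alternatives are in the closing section.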

Additional observations from a re-analysis of the deposited data

How the results depend on the processing

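The counts of promoters kept within 1.5 times of those reported under the scalings, filters, window lengths and DESeq2, with 1 exception. Relative to the outer flanks of the 20 nearest genes 2409 rose and 397 fell. With that offset centred 1201 rose and 1026 fell. With the replicate number as a block (replicate block) 1561 rose and 1203 fell. The covered width was then wider at 417 and narrower at 348 genes, and the width at 50% of the peak height at 0 and 0. The differences between replicates 1 and 2 correlated at 0.09 between the genotypes over 3789 promoters. This value cannot tell whether same-numbered libraries share more than a number, such as a preparation. Moves downstream fell to 7.79% of genes tested with 1 kb to each side, and moves downstream and upstream to 3.40% and 7.98% with the mean outer flank level removed, an alternative chosen after seeing the data. Shifts away from the core were 2.95% with a core of 200 bp to each side and 9.16% with the flank level removed. Widths at 25% of the height gave 75 wider and 404 narrower genes, and a peak of at least 10 CPM gave 8 and 26. Without shared windows the outer flank level differed by -0.045 CPM. With width classes from WT replicate 1 alone the medians were 0.42, 0.10, -0.016 and -0.12, and with 5 CPM as the level they were 0.070 and 0.21 in the third and the widest class; the cause was not tested. Leaving out each library in turn gave 1411 to 1487 higher and 1042 to 1103 lower promoters. By segment, from upstream to downstream, it gave 123 to 164 and 306 to 457, 448 to 623 and 400 to 527, 1474 to 1649 and 445 to 519, 1000 to 1099 and 1104 to 1238, and 243 to 265 and 768 to 1078. Moves downstream were 7.27% to 12.2% and upstream 12.5% to 17.8%, shifts to the core 23.4% to 38.4% and away 2.97% to 4.93%, covered widths 250 to 323 wider and 154 to 366 narrower, and 50% widths 0 to 31 and 0 to 147. Against H3K27ac 300 to 314 were higher and 98 to 125 lower, and against H3K27me3 653 to 667 and 525 to 546. Irx2 turned to -0.047 without TMM factors, -0.029 with TMM factors from promoters, -0.014 in DESeq2, -0.36 with 1 kb to each side, -0.041 with an offset from H3K27me3 and -0.17 with the centred flank offset. With the flank offset Cxcl12 turned to 0.23, Shox2 to 0.018 and Fzd7 to 0.47, Lyz2 to 0.15 with it, to between -0.62 and 0.17 without 1 library and to 0.52 with the antibody-field libraries, where Krt80 was -0.50 and Col10a1 0.30, and Hoxa2 was -0.23 with 5 kb to each side. Depth limits the promoters near 10 CPM in a group, where a change rests on few reads.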
